A study of Mus musculus with 6 samples.

Results

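In the 3 embryonic stem (ES) cell libraries of a mouse RNA–RNA interactome, ribosomal RNA (rRNA) was joined to exons of messenger RNA (mRNA) in 32986 read pairs, and all 6 libraries together held 10479650 pairs. A read pair belonged to the set when one of its fragments carried the type rRNA and the other the type protein_coding with the region label utr5, exon or utr3. ES-1 held 3607 such pairs of 3230403, ES-2 held 1403 of 1312314, and ES indirect held 27976 of 3302146. MARIO ligates RNAs held by the same cross-linked protein to either side of a biotinylated linker (RNA1–Linker–RNA2). In ES indirect, proteins linked to each other can also hold the RNAs. Each pair records that an mRNA fragment and an rRNA fragment were ligated. The paper's cross-species control attributed part of the ligation products to random ligation, so a single pair need not reflect closeness in the cell.

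All 3 libraries came from undifferentiated E14 ES cells of strain 129/Ola and grown on gelatin with LIF and no feeder layer. ES-1 and ES-2 were cross-linked with ultraviolet light, which links RNA to the protein it touches, and were cut with RNase I. ES indirect was cross-linked with formaldehyde and EthylGlycol bis(SuccinimidylSuccinate) (EGS), which also links proteins to each other, and was sheared by sonication. All 3 were depleted of rRNA, ES-1 and ES indirect with duplex-specific nuclease and ES-2 with an antibody against RNA–DNA hybrids, so the rRNA seen is what depletion left. ES-1 and ES-2 serve as replicates with these technical differences, and ES indirect has no replicate. Cross-linker and fragmentation changed together between the ultraviolet libraries and ES indirect, and their effects cannot be told apart.

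The ribosome has a small subunit built on 18S rRNA and a large subunit built on 28S, 5.8S and 5S rRNA. The small subunit binds the mRNA, scans the 5′ untranslated region (5′UTR) for the start codon and holds the codons during elongation, and the large subunit joins at the start codon and leaves at the stop codon. The 3′UTR lies beyond the stop codon and is not translated. 18S, 5.8S and 28S are cut from one long precursor whose 5′ external transcribed spacer (5′ETS) and internal transcribed spacer 1 (ITS1) flank 18S and are discarded in the nucleolus, whereas 5S is made from separate gene copies by RNA polymerase III.

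The rRNA label did not cover the same RNA in every library. In ES-1 and ES-2 the 18S sequence of the Rn45s locus (chr17:39983295-39985147, mm9, 1853 nt) carried the label rRNA_repeat, so rRNA there meant 5S copies, 5.8S and a locus on chromosome 13 (chr13:9833615-9833808) that is 28S by sequence. In 98.3% of the 5161 ends at that locus every 12-base word also occurred in large-subunit rRNA. In ES indirect the whole Rn45s locus (chr17:39979932-39985783) carried the label rRNA. With rRNA_repeat counted as well, another 128396 pairs of ES-1, 89387 of ES-2 and 39925 of ES indirect joined rRNA to an mRNA exon, and results with these wider labels are given beside the main ones.

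Every end was counted once for each distinct pair of coordinates, on the sense strand of its gene, and ends that themselves looked like rRNA were left out. This kept 3059 pairs in ES-1, 883 in ES-2 and 20037 in ES indirect. They held 2314, 787 and 19234 distinct mRNA fragments from 1704, 653 and 6729 genes. The ES-2 fragments were short, with a median of 29 nt against 62 nt in ES-1 and 60 nt in ES indirect, and they were the least well placed. Before these filters 68.5% of the ES-2 ends lay on the sense strand and 59.4% matched the genome at the stated position, against 91.6% and 88.8% in ES-1 and 86.9% and 84.8% in ES indirect. Ends labelled utr5 matched least often, at 64.4% in ES-1, 35.2% in ES-2 and 70.8% in ES indirect, where exon ends matched at 91.3%, 68.7% and 87.6%. In ES indirect the kept ends without rRNA were longer than those beside rRNA, with a median of 90 nt. Before the filters 96.1% of the ends without rRNA matched, and 0.756% looked like rRNA against 8.02% beside rRNA. In the replicates the kept ends without rRNA had medians of 63 and 30 nt, and 84.9% and 62.8% matched before the filters. These values cover all pairs without rRNA. The comparisons below did not match ends on length, and its effect was not tested. Intervals below are 95% Wilson intervals and cover counting error only.

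The stretches of 5S, the 28S-like locus and 18S most often joined to mRNA are shown here because they hold the most covered positions of these RNAs. No stretch of 5.8S is shown. Each is the 30-base window with most coverage, read from the mm9 genome on the strand of the RNA, and capitals mark bases covered by at least 90% of the window's highest coverage.
5S rRNA, chr8:126122058-126122087, minus strand: accgcctgggaataCCGGGTGCTGTAGGCT
28S-like locus, chr13:9833712-9833741, minus strand: gttcgtctTGGGAAACGGGGTGCGGCCGga
18S rRNA, chr17:39984264-39984293, plus strand: TGAAATTCTTGGACCGGCGCAAGACGGACC
The 5S window lies near the 3′ end of the RNA, and its most covered base was covered by 2667 of the 3347 ends placed on 5S in ES-1 and ES-2. The 18S window was covered at its peak by 2198 of 16787 ends, and the 28S-like window by 256 of 271.

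The mRNA stretches shown next belong to genes with most distinct ends joined to rRNA in ES-1 and ES-2 together, and to Tnfaip1 and Ints1, whose many pairs came from few fragments. Windows and capitals are as above.
Eef2, coding exon, chr10:80640860-80640889, plus strand: atggctcgggcttcctcaTCAACCTCATCG
Hsp90ab1, coding exon, chr17:45706468-45706497, minus strand: CCTGGAGCTCTTCTCCGAGCTGGCTGAGGA
Pkm2, coding exon, chr9:59513118-59513147, plus strand: ggacatTGACTCTGCCCCCATCACGGCCCG
Apoe, coding exon, chr7:20282313-20282342, minus strand: AGGCGGCACAGGCCCGACTCGGAGCCGACa
Gnb2l1, labelled utr5, chr11:48613962-48613991, plus strand: AGCCATGACCGAGCAGATGACCCTTCGCGG
ORF19, coding exon, chr17:66468400-66468429, plus strand: tgtcagactccaTCCCACCGCTGCCACCcc
Snrpb, labelled utr3, chr2:129998672-129998701, minus strand: TAGATCCTTGACTGAAGCTGATGATGCGTC
Tnfaip1, 3′UTR, chr11:78338797-78338826, minus strand: AGTCCACTCATCGTGACTGATGAGACCCTT
Ints1, coding exon, chr5:140233609-140233638, minus strand: TTCTGGGCTGCTTGTGGACTGGCTGGAGAC
Coverage of single mRNA windows was mostly low. The Eef2 window was covered at its peak by 4 of 21 ends in both libraries, the Hsp90ab1 window by 2 of 17, and the Pkm2 window by 3 of 15. The ORF19 window was covered by 5 of 7 ends and the Snrpb window by 14 of 16.

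Among the RNAs that carried the label rRNA, 5S was the most frequent partner of mRNA exons in the ultraviolet libraries. The large- and small-subunit sequences labelled rRNA_repeat were joined to far more mRNA ends, 51411 and 23486 in ES-1 and 34478 and 13328 in ES-2, against 2731 and 643 for 5S. Within the rRNA label, 5S made up 89.3% (88.1–90.3) of the rRNA ends joined to mRNA in ES-1 and 72.8% (69.8–75.7) in ES-2. Among rRNA ends joined to any other RNA the 5S shares of the replicates were 80.0% and 58.8%, so 5S took a larger share beside mRNA than beside other RNAs in both replicates. 5.8S and the 28S-like locus took smaller shares beside mRNA. 5.8S was 6.83% and 9.97% of the rRNA ends in the replicates, against 11.1% and 15.4% beside other RNAs, and the 28S-like locus was 3.89% and 17.2%, against 8.90% and 25.8%. In ES indirect, where 18S carried the label, 18S made up 83.8% (83.3–84.3) of rRNA ends joined to mRNA and 76.3% (76.1–76.6) of those joined to other RNA. The precursor spacers went the other way, with 5′ETS at 9.69% beside mRNA and 15.7% beside other RNA, and ITS1 at 2.72% and 4.63%. The mature small-subunit rRNA was thus a larger part, and the discarded spacers a smaller part, of the rRNA next to mRNA than of the rRNA next to other RNA in that library.

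In the ultraviolet replicates most 5S fragments reached the 3′ end of the molecule. Across all kept pairs the mRNA end was RNA1 in 9.28% in ES-1, 26.6% in ES-2 and 59.5% in ES indirect. In the other pairs the rRNA fragment was RNA1, which joins the linker through its 3′ end. Whether the side of the linker gave rise to the 5S shares was not tested. In ES-1, 78.5% (76.9–80.0) of the 5S ends joined to mRNA reached its last 10 bases and 7.12% reached its first 10. In ES-2 the shares were 81.1% (77.9–84.0) and 1.57%. Beside other RNA the share reaching the last 10 bases was lower in both replicates, at 70.3% and 70.0%. In ES indirect it was 70.5% (66.5–74.1) beside mRNA and 73.3% beside other RNA, the opposite order. With 5S divided into 3 equal parts, the midpoint lay in the 3′ part for 73.5% of the ends joined to mRNA in ES-1, 81.3% in ES-2 and 47.2% in ES indirect, where 40% lay in the middle part and 12.8% in the 5′ part. 18S was covered along its length. Of the 18S ends joined to mRNA, 27.7% had their midpoint in its 5′ part, 44.9% in its middle part and 27.5% in its 3′ part when 18S was divided into 3 equal parts, close to the 28.9%, 44.2% and 27.0% beside other RNA. Position 993 of 18S was covered most often by ends joined to mRNA, at 13.1%, and position 950 by ends joined to other RNA, at 10.3%.

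**Figure D1:**
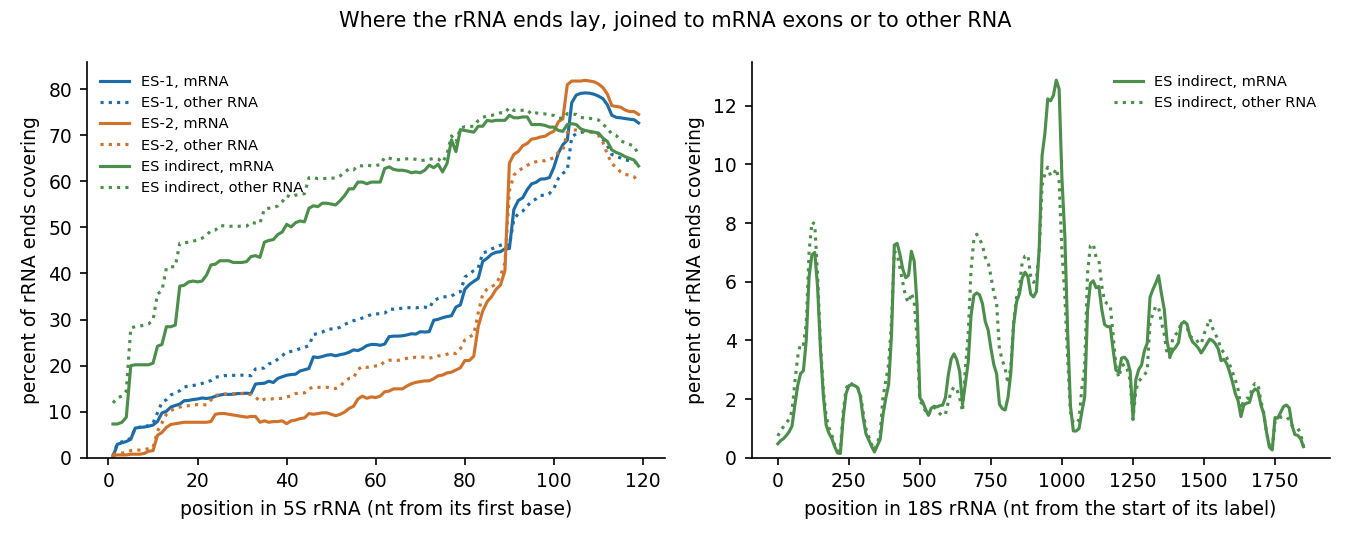
Percent of rRNA ends that cover each position of 5S rRNA (left, nt from its first base) and 18S rRNA (right, nt from the start of its label), for ends joined to mRNA exons (solid) and to other RNA (dotted) in ES-1 (blue), ES-2 (orange) and ES indirect (green). The 18S lines are drawn at intervals of 10 nt. The 5S lines of ES-1 and ES-2 rise towards the 3′ end, and the solid 18S line is highest close to position 993.

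Among the rRNA ends of each library, mRNA exons were the partner in 3059 of 19992 distinct pairs in ES-1, 883 of 7084 in ES-2 and 20037 of 133896 in ES indirect. Small nucleolar RNAs, which guide the modification of rRNA, were the partner in 51.7% in ES-1, 25.1% in ES-2 and 5.01% in ES indirect. Introns of protein-coding genes were the partner in 8.31%, 20.6% and 38.4%.

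Which part of the mRNA lay next to rRNA was compared with the exonic mRNA ends of read pairs that held no rRNA, with Fisher's exact test (two-sided) in each library and Benjamini-Hochberg adjustment over the 9 tests. The tests compare read pairs within a library, so their p-values carry no error between cultures. With both sides of the linker pooled, the parts did not differ detectably in ES-1. There 5′UTR ends were 11.4% (10.3–12.6) beside rRNA, a difference of −1.05 points from ends without rRNA (interval −2.15 to 0.149, adjusted exact p = 0.155). Coding-exon ends were 56.8% in both (difference −0.02 points, interval −1.82 to 1.76, adjusted exact p = 0.985), and 3′UTR ends were 31.8% (30.2–33.5) and 30.8% (30.4–31.1) (adjusted exact p = 0.268). In ES-2 the 5′UTR share was 26.5% (23.7–29.5) against 24.1%, the coding share 54.1% (50.8–57.4) against 53.7%, and the 3′UTR share 19.4% (16.9–22.1) against 22.2%, with adjusted exact p-values of 0.155, 0.913 and 0.135. The 5′UTR and 3′UTR differences had opposite signs in the ultraviolet libraries when read pairs were counted. With each distinct mRNA end counted once, a setting added after the data were seen, the signs were the same. The 5′UTR differences were then 0.499 points in ES-1 (adjusted exact p = 0.684) and 5.27 in ES-2 (adjusted exact p = 5.20e-04), and the 3′UTR differences −0.346 and −3.40 (adjusted exact p = 0.898 and 0.0635). The direction in ES-1 therefore depended on how repeated ends were counted. In ES-2 this counting reduced utr5 ends from 234 to 174 beside rRNA and from 11126 to 6000 without rRNA. It did not require that an end match the genome. Against between-gene pairs alone the ES-1 differences grew to −1.67 points for 5′UTRs (adjusted exact p = 0.0156) and 2.39 points for 3′UTRs (adjusted exact p = 0.0153), while those of ES-2 did not pass. Requiring also a genome match and no linker left the ES-1 differences at −0.71 points for 5′UTRs (adjusted exact p = 0.406) and 2.25 points for 3′UTRs (adjusted exact p = 0.0332). The ES-2 5′UTR difference was then 0.74 points (adjusted exact p = 0.5996). The side of the linker also mattered in ES-1, where 9.28% of the kept mRNA ends were RNA1. Among RNA1 ends alone the 3′UTR difference was −12.6 points (adjusted exact p = 4.28e-06) and the coding difference 9.39 points (adjusted exact p = 0.0031).

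In ES indirect the ends next to rRNA were more often coding and less often 3′UTR. Coding exons made up 57.7% (57.0–58.4) beside rRNA and 50.5% (50.2–50.7) without rRNA, a difference of 7.19 points (adjusted exact p = 5.00e-82), and 3′UTRs made up 27.9% (27.3–28.5) and 35.5% (35.3–35.8), a difference of −7.62 points (adjusted exact p = 1.05e-103). The 5′UTR share, 14.4% against 14.0%, did not pass the test (adjusted exact p = 0.155). This contrast depended on which pairs served as background. Only 37.7% of the ES indirect ends without rRNA came from between-gene pairs, against 81.1% and 93.5% in the replicates. The partner in such pairs had another name and lay more than 2000 bp away or on another chromosome. Against those between-gene pairs alone the coding difference was −0.35 points (adjusted exact p = 0.498), and the 5′UTR share was 2.92 points higher (adjusted exact p = 3.21e-26). Requiring also that the end match the genome and hold no linker left the coding difference at 0.24 points (adjusted exact p = 0.5996), the 5′UTR difference at 2.48 points (adjusted exact p = 2.79e-18) and the 3′UTR difference at −2.72 points (adjusted exact p = 8.22e-12).

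**Figure D2:**
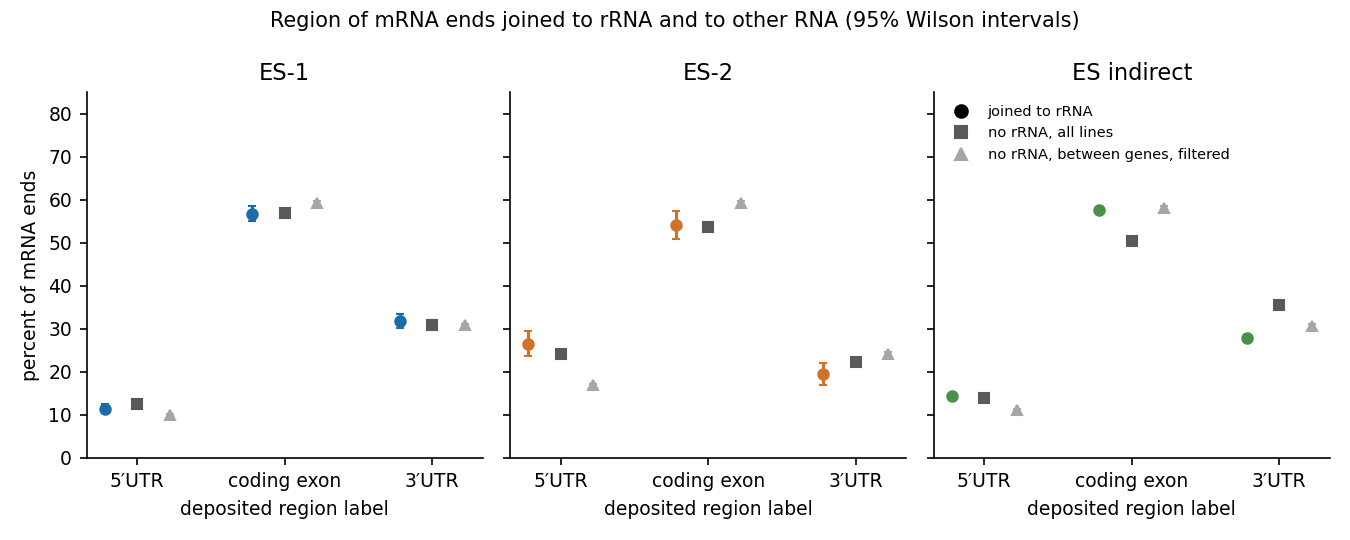
Percent of mRNA ends labelled 5′UTR, coding exon or 3′UTR in each library, with 95% Wilson intervals. Coloured circles are ends joined to rRNA, and dark squares are ends of all pairs without rRNA. Light triangles are ends of between-gene pairs without rRNA whose sequence matched the genome and held no linker. In ES indirect the coding share beside rRNA, 57.7%, lies above the dark square at 50.5% and close to the light triangle at 58.2%. The circles are not filtered. Filtered in the same way, this coding share is 58.4%. The ES-2 5′UTR share beside rRNA is then 17.5% in place of 26.5%, and its light triangle lies at 16.8%.

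Genes differ in how long their UTRs are, so the regions were also compared inside each gene, with the Mantel-Haenszel odds ratio over genes. The odds of a 3′UTR end rather than a coding end, beside rRNA relative to no rRNA, were 1.01 (95% interval 0.904–1.12, 1442 genes) in ES-1, 0.939 (0.717–1.23, 452 genes) in ES-2 and 0.686 (0.657–0.715, 5693 genes) in ES indirect. Those of a 5′UTR end were 0.891 (0.747–1.06), 0.854 (0.621–1.17) and 0.983 (0.930–1.04). With the filtered between-gene background the ES indirect values were 0.774 (0.737–0.813) for 3′UTRs and 1.196 (1.12–1.28) for 5′UTRs, and the intervals of ES-1 and ES-2 still held 1. With the wider rRNA labels and the filtered between-gene background, a setting added after the data were seen, the 3 libraries had the same direction. The 3′UTR odds ratios were 0.893 (0.864–0.923) in ES-1, 0.947 (0.898–0.999) in ES-2 and 0.828 (0.799–0.858) in ES indirect, and the 5′UTR odds ratios were 1.17 (1.11–1.23), 1.12 (1.05–1.202) and 1.19 (1.13–1.251). Inside genes, mRNA ends next to the more broadly defined rRNA were therefore less often in 3′UTRs and more often in 5′UTRs than filtered between-gene ends. This held in both ultraviolet replicates and in ES indirect. With the wider labels and all pairs without rRNA as background, the 5′UTR odds ratio of ES indirect was 0.965 (0.929–1.003), on the other side of 1 from the 1.19 and 1.14 of the replicates, and the 3′UTR odds ratios stayed below 1, at 0.847, 0.933 and 0.729.

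**Figure D3:**
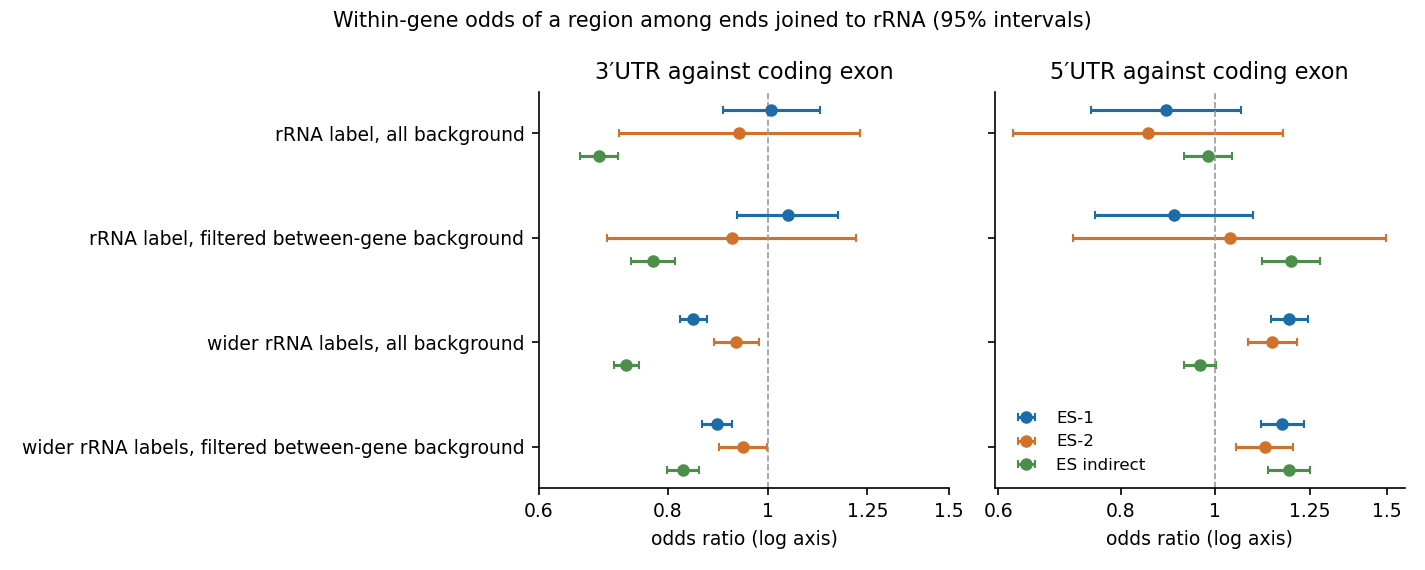
Within-gene odds ratios (log axis) of 3′UTR ends (left) and 5′UTR ends (right) against coding-exon ends, joined to rRNA relative to no rRNA, for ES-1 (blue), ES-2 (orange) and ES indirect (green) under 4 combinations of rRNA labels and background, with 95% intervals and a dashed line at 1. In the lowest row all 3 libraries lie below 1 for 3′UTRs and above 1 for 5′UTRs.

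The part of the mRNA was also counted by rRNA partner. In ES indirect, mRNA ends joined to 18S were 14.2% 5′UTR, 58.5% coding and 27.3% 3′UTR, and those joined to 5′ETS, a spacer that is not part of the ribosome, were 15.8%, 53.8% and 30.5%. Ends joined to 5S in that library were 12.8% 5′UTR, 50.2% coding and 37.0% (33.1–41.1) 3′UTR, the highest 3′UTR share among the partners in that library. Under the wider labels, small-subunit rRNA had a larger 5′UTR share than large-subunit rRNA in the replicates, at 16.9% (16.5–17.4) against 14.8% (14.5–15.1) in ES-1 and 29.6% (28.8–30.4) against 26.1% (25.6–26.6) in ES-2. In ES indirect the sequences labelled rRNA_repeat gave 14.8% (13.9–15.7) for the small and 14.1% (13.7–14.5) for the large subunit, with overlapping intervals, and 18S of the Rn45s locus, which is also small-subunit rRNA, gave 14.2% (13.7–14.8).

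The region labels were set against the transcript with the longest coding sequence of each gene in the gene annotation of the same build. Of the ends joined to rRNA, 91.9% in ES-1, 87.0% in ES-2 and 90.4% in ES indirect lay on it. Nearly all placed exon ends were coding, at 99.9% in ES-1, 100% in ES-2 and 99.9% in ES indirect. Of the utr5 ends, 43.8% in ES-1, 55.6% in ES-2 and 50.2% in ES indirect lay in the 5′UTR of that transcript, and the rest were mostly coding (28.1%, 11.5% and 27.1%) or off it (24.9%, 32.9% and 21.2%). By position, the ES indirect ends joined to rRNA were 8.23% (7.84–8.64) 5′UTR, 70.5% coding and 21.3% (20.7–21.9) 3′UTR, against 4.75% (4.58–4.94), 71.0% and 24.2% (23.8–24.6) for between-gene ends without rRNA. All its ends without rRNA were 6.01%, 63.5% and 30.5%. ES-1 had the opposite order, with 5′UTR 5.48% (4.70–6.38) against 6.70% between genes and 3′UTR 26.6% against 24.8%. In ES-2 the shares were 16.9% (14.4–19.7) against 14.6% and 15.6% against 17.7%.

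Ends within 100 nt of the start codon were more frequent beside rRNA in ES indirect. They made up 12.6% (12.1–13.1) of placed ends beside rRNA, 7.89% (7.75–8.04) of those without rRNA and 9.58% (9.34–9.83) of between-gene ends. In ES-1 the shares were 6.76% (5.89–7.75), 7.21% and 7.77%, and in ES-2 14.1% (11.8–16.7), 12.7% and 12.9%, so ES-1 showed no rise, with the upper bound beside rRNA just under the between-gene share, and the ES-2 interval held both of its other shares. Around the stop codon the ES indirect share was 12.3% (11.9–12.8) beside rRNA, 10.1% (9.93–10.2) without rRNA and 12.2% in between-gene ends, so its interval lay above the share without rRNA and held the between-gene share. The ES-1 shares were 8.58% (7.60–9.67), 9.49% and 9.40%, and those of ES-2 5.86% (4.41–7.75), 7.71% and 7.61%. With the coding sequence divided into 10 equal bins, the first held 8.46% of the ES indirect ends beside rRNA and 6.39% of between-gene ends, while the shares were 5.41% (4.63–6.31) and 6.24% in ES-1 and 8.20% (6.46–10.4) and 7.98% in ES-2.

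**Figure D4:**
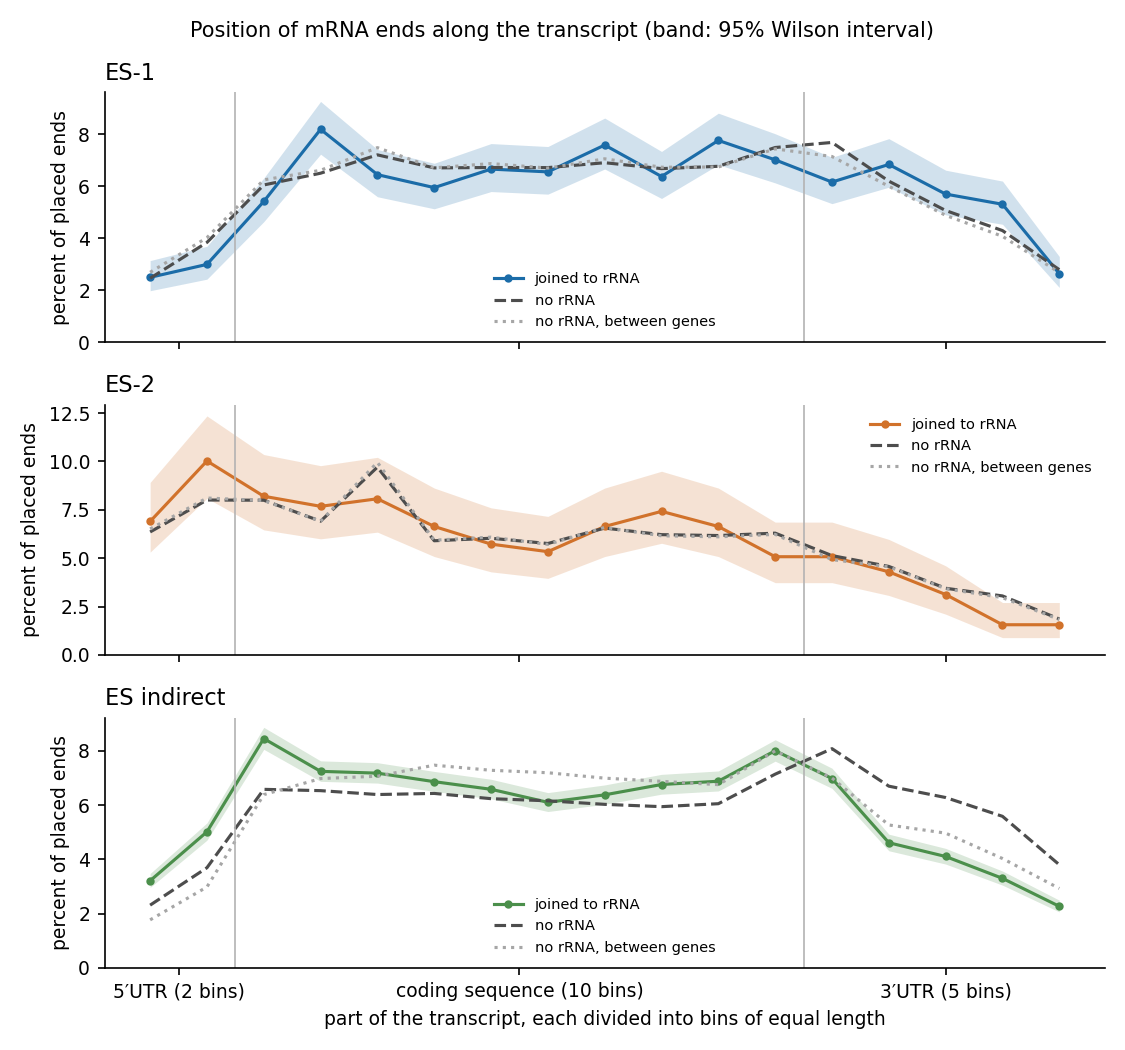
Percent of placed mRNA ends in each bin along the transcript (2 bins of 5′UTR, 10 of coding sequence and 5 of 3′UTR, each part divided equally), for ends joined to rRNA (coloured line with 95% Wilson band), ends without rRNA (dashed) and between-gene ends without rRNA (dotted). In ES indirect the coloured line stands above the other lines in the 5′UTR and the first coding bin, at 8.46%, and below them in most of the 3′UTR.

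Contacts with rRNA were spread thinly over many mRNAs. Of the genes with an end beside rRNA, 78.5% in ES-1, 85.6% in ES-2 and 46.5% in ES indirect had 1 distinct mRNA fragment, and the 15 genes with most fragments held 5.70%, 8.39% and 3.69% of all fragments. ES-1 and ES-2 shared 242 genes, which were 14.2% of the ES-1 genes and 37.1% of the ES-2 genes. ES indirect held 81.8% of the ES-1 genes and 79.5% of the ES-2 genes. The libraries differed in depth, with 2314, 787 and 19234 fragments beside rRNA in ES-1, ES-2 and ES indirect. Genes with an end without rRNA numbered 10394, 8991 and 12862. Neither the overlaps nor the shares of genes with 1 fragment were set against those that depth alone would give. Across genes with 10 or more ends, the number of pairs with rRNA and without rRNA had a Spearman correlation of 0.27 in ES-1 (2117 genes), 0.27 in ES-2 (885 genes) and 0.44 in ES indirect (5039 genes). These correlations are across genes of 1 library, which share its depth, and genes are not independent replicates.

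The 15 mRNAs with most distinct ends beside rRNA in ES-1 and ES-2 together included chaperones, metabolic enzymes and a translation factor. This ranking counts ends and is not set against each gene's ends without rRNA. In ES-2, Hsp90ab1 had 1 pair with rRNA against 170 without, Fn1 3 against 115, Slc2a3 2 against 79 and Pkm2 8 against 73, and none was called. Eef2, the elongation factor that moves the ribosome along the mRNA, had 15 distinct ends in ES-1, 6 in ES-2 and 42 in ES indirect, beside 473, 214 and 431 pairs without rRNA. Its ends lay mainly in coding exons, 12 of 15 in ES-1, 5 of 6 in ES-2 and 30 of 42 in ES indirect. Hsp90ab1, a cytosolic chaperone, had 16, 1 and 75 distinct ends. Pkm2, a glycolytic enzyme, had 8, 7 and 28, and Fn1, the matrix protein fibronectin, had 11, 3 and 29. Slc2a3, a glucose transporter, differed from these in region, with 6 of 10 ends in ES-1, both ends in ES-2 and 26 of 44 in ES indirect in its 3′UTR. The regions of the ends without rRNA are not given for Eef2 and Slc2a3, so these counts do not show a preference beside rRNA. Apoe, a lipid carrier, had 6, 3 and 11 ends, and Atp5b, a subunit of the mitochondrial ATP synthase, had 7, 1 and 33. Hsp90aa1, another cytosolic chaperone, had 6, 1 and 52, and Dync1h1, the dynein heavy chain, had 5, 2 and 22. Of the remaining genes, Cited2 had 6, 2 and 5 ends, and 33.3%, 0% and 16.7% of its pairs matched the genome. Dcun1d4 matched poorly in all 3 libraries, at 4.55%, 14.3% and 40% of pairs. 2310067B10Rik matched at 28.6% in ES-1 and 2 of 10 pairs in ES-2, but at 82.4% in ES indirect, where it was called higher (17 pairs against 33, log2 odds ratio 2.09 ± 0.43, adjusted exact p = 0.00203) and was not called against between-gene pairs (0.91, adjusted exact p = 0.364).

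Gnb2l1 encodes RACK1, itself a protein of the small ribosomal subunit, and had 6 ends in ES-1, 3 in ES-2 and 15 in ES indirect. All of them, and all its ends without rRNA, were labelled utr5, although the window shown above holds the letters ATG. Snrpb, which encodes a core protein of spliceosomal snRNPs, had 15 ends in ES-1, 1 in ES-2 and 5 in ES indirect, all labelled utr3. The 16 ends of ES-1 and ES-2 fell within 74 nt (chr2:129998642-129998715) inside an annotated exon (chr2:129998339-129998910). On the strand of the RNA this stretch holds ATGATGA at base 6 and ends its last CTGA motif, the letters of the C box and D box of a C/D small nucleolar RNA, from base 67. The match is of letters only, and the 413 pairs of Snrpb without rRNA in ES-1 carried the same utr3 label. Neither gene passed the per-gene test in any library (adjusted exact p of 0.417 to 1).

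Each gene's share of the ends beside rRNA was compared with its share of the ends without rRNA, by Fisher's exact test with Benjamini-Hochberg adjustment over all genes with at least 10 ends. In ES-1, 26 of 2117 genes were called higher (1.23%) and 0 lower (0%). In ES-2, 0 of 885 genes were called in either direction (0%), with 36 at an unadjusted exact p under 0.05. Of the 765 genes tested in both replicates, 0 were called in both (0%). In simulated data ES-2 called 0 of 45 genes raised 4-fold and 5 of 44 raised 8-fold, so it could detect few changes.

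The ES-1 calls rested on few mRNA fragments, each joined to rRNA at several coordinates. 25 of the 26 genes had 3 or fewer distinct mRNA fragments beside rRNA, and the 26 had a median of 2 fragments and 6 pairs. Tnfaip1 is the clearest case, with 10 pairs from 1 mRNA fragment (log2 odds ratio 6.24 ± 0.89 SE, adjusted exact p = 3.73e-09), 0 pairs in ES-2 and 3 fragments in ES indirect. Dlg5, a scaffold protein, had 9 pairs from 1 fragment, Lmnb1, a lamin, 10 pairs from 2, and Rab5b, an endosomal GTPase, 7 pairs from 2. In ES-1 as a whole, 171 mRNA fragments took part in 3 or more pairs with 5S and made up 622 of its 2731 pairs with 5S. The 5S copies in these 2731 pairs lay on 18 chromosomes, so pairs of 1 fragment can differ only in the 5S copy and need not be separate contacts. Counted once per mRNA fragment, 0 of 1844 genes were called in ES-1 (0%). In ES-2 3 of 764 were called higher (0.393%), namely 2310067B10Rik, Dcun1d4 and ORF19. By pairs their log2 odds ratios were −0.33, −0.27 and 0.54. Their 687, 2219 and 197 pairs without rRNA held 30, 12 and 10 fragments, and their 10, 35 and 5 pairs with rRNA held 6, 6 and 4. Of the pairs kept in ES-2, 2 of 10 for 2310067B10Rik and 14.3% for Dcun1d4 matched the genome where they were placed, and all 5 of ORF19 did.

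**Figure D5:**
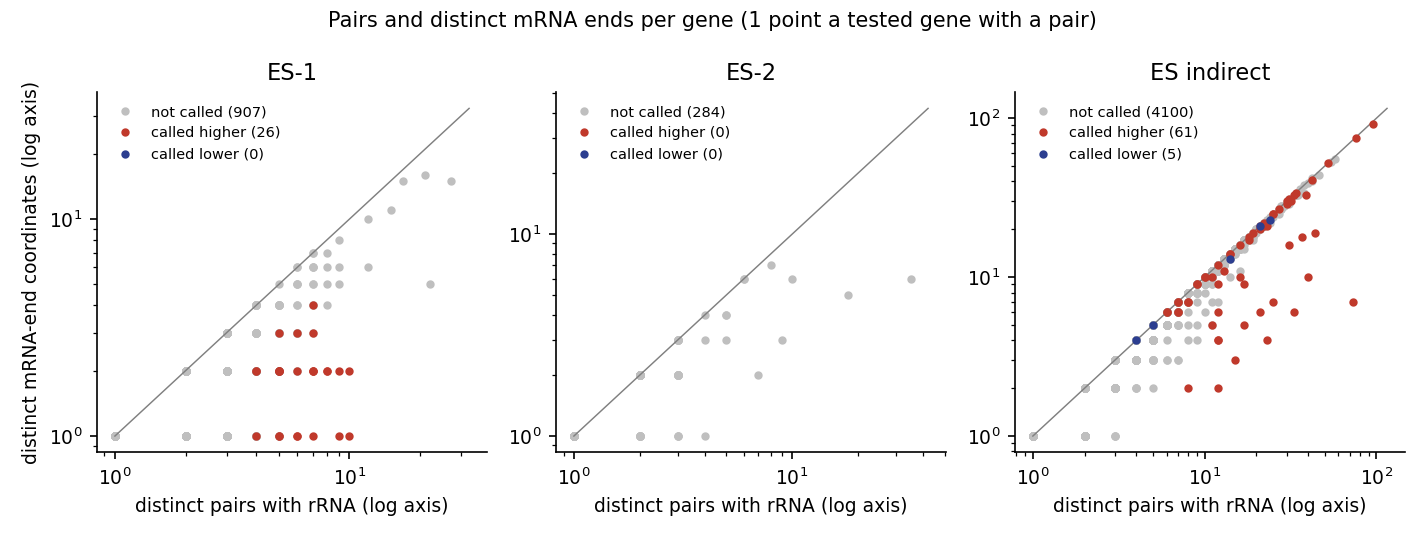
Distinct pairs with rRNA (horizontal, log axis) and distinct mRNA fragments in those pairs (vertical, log axis) for each tested gene with a pair, with genes called higher in red, lower in blue and not called in grey. Red genes of ES-1 lie far below the line of equality, with 25 of 26 at 3 fragments or fewer, whereas many of the 61 red genes of ES indirect lie on it.

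In ES indirect, 61 of 5039 genes were called higher (1.21%) and 8 lower (0.159%), and 41 of the 61 and 5 of the 8 were also called when each mRNA fragment was counted once, which called 50 genes higher (1.02%) and 5 lower (0.102%) of 4906. Actb, the cytoskeletal beta-actin, had the most pairs, 96 from 92 fragments against 293 without rRNA (log2 odds ratio 1.42 ± 0.17 SE, adjusted exact p = 3.08e-11). In ES-1 it had 4 pairs against 155, and in ES-2 2 against 77. Of its 92 fragments, 71 were coding and 17 lay in the 3′UTR, where 130 of its 293 pairs without rRNA lay. Fragments and pairs are unlike units, and the 293 pairs were not limited to between-gene pairs. These counts therefore do not show a preference of Actb beside rRNA. Other called genes with many fragments were Hsp90ab1 (76 pairs, log2 odds ratio 0.74 ± 0.18, adjusted exact p = 0.0142), Hsp90aa1 (52 pairs, 0.92 ± 0.22, adjusted exact p = 0.0114), Aldoa, a glycolytic enzyme (42 pairs, 1.04, adjusted exact p = 0.0142), Atp5b (33 pairs, 1.19 ± 0.28, adjusted exact p = 0.0131) and the ES cell gene Dppa5a (31 pairs, 1.06 ± 0.29, adjusted exact p = 0.0493).

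Against between-gene pairs alone the ES indirect calls changed. Of the 2017 genes then tested, 26 were called higher (1.29%) and 60 lower (2.97%), while in ES-1 20 of 1668 were higher (1.2%) and in ES-2 0 of 803. Actb stayed higher (log2 odds ratio 0.70, adjusted exact p = 0.0094), as did Hist1h1b, a linker histone (34 pairs, 1.22, adjusted exact p = 0.0140), Cox4i1, a subunit of cytochrome c oxidase (14 pairs, 2.08, adjusted exact p = 0.0155), and Ints1, a subunit of the Integrator complex (25 pairs from 7 fragments, 3.59, adjusted exact p = 2.48e-08). Hsp90ab1, Hsp90aa1, Aldoa, Atp5b, Dppa5a, Hist1h4a and Rpl8 were no longer called. Eef1a1, which delivers transfer RNA to the ribosome, was called lower against that background (57 pairs, log2 odds ratio −0.97, adjusted exact p = 6.83e-05), and so were Eef2 (42 pairs, −0.80, adjusted exact p = 0.0165) and Pkm2 (28 pairs, −1.70, adjusted exact p = 6.95e-10), none of which was called against all pairs without rRNA.

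Among the genes called lower in ES indirect, some had no pair with rRNA. Gm10800, Gm10718 and Scn2a1 had 0 pairs with rRNA, which allows a share of up to 0.0150% of the 20037 pairs, against 332, 120 and 243 pairs without rRNA. Their shares were at least 13.6-fold, 4.92-fold and 9.97-fold lower beside rRNA than among all pairs without rRNA. The sequence match and the number of distinct fragments of those pairs without rRNA are not given here, and the cause of the difference was not tested. All 3 were also called lower against between-gene pairs, of which they had 262, 115 and 242 (adjusted exact p = 1.89e-29, 7.64e-12 and 2.77e-27). Gm10800 also had 0 pairs with rRNA in ES-1, beside 134 without, and in ES-2, beside 12. Ahnak2 (5 pairs against 319), Mid1 (24 against 460), Plec, a cytoskeletal linker (14 against 268), and Gm10116 (4 against 184) were called lower with pairs beside rRNA. Of these 4, only Gm10116 was called lower against between-gene pairs (log2 odds ratio −3.51, adjusted exact p = 8.51e-12).

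Several calls in ES indirect rested on fragments whose sequence did not match the gene. Pigf had 33 pairs from 6 fragments (log2 odds ratio 4.45 ± 0.48, adjusted exact p = 7.47e-19), of which 3.03% matched the genome where they were placed. Gykl1 matched in 0% of 17 pairs, Patl2 in 16.1% of 31 and Rtcd1 in 5 of 40. A run of the linker sequence lay in 96.8% of the Patl2 pairs, 100% of the 40 Rtcd1 pairs and 98.6% of the 73 Zdhhc3 pairs. Some ends labelled mRNA were rRNA by sequence, and those ends were left out. Sec14l1 had 291 lines in ES indirect, of which 97.3% were made of rRNA words, Klhl29 192 lines (95.8%), Pde11a 95 (96.8%), Crybb1 83 (98.8%) and Atp4a 75 (98.7%). Klhl29 kept 8 pairs and was still called higher, with 1 of the 8 matching the genome.

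Groups of mRNAs with shared function were counted in ES indirect beside the 1.21% of all genes called higher and 0.159% called lower. The mRNAs of replication-dependent histones, the proteins that package newly made DNA, end in a stem-loop instead of a poly(A) tail. Of these mRNAs 11 of 63 tested members were called higher and 0 lower. They made up 6.03% of the pairs with rRNA and 4.26% of the pairs without. Hist1h4a had 39 pairs with rRNA and 75 without (log2 odds ratio 2.09 ± 0.28, adjusted exact p = 1.88e-08) and Hist1h1b 34 and 101 (1.47 ± 0.28, adjusted exact p = 5.90e-04), whereas Hist1h1d had 38 and 363 (−0.22 ± 0.25, adjusted exact p = 0.958). Against between-gene pairs the same list had 2 of 63 members called higher and 15 lower, beside 1.29% and 2.97% of all genes, and 69.1% of its between-gene pairs joined it to another histone gene. Histone genes are near copies of each other, so which copy a fragment came from is uncertain. In the replicates 0 of 58 (ES-1) and 0 of 36 (ES-2) members were called, at 1.63% and 2.15% of pairs with rRNA and 1.90% and 1.76% of pairs without.

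The counts for mRNAs of the translation machinery depended on the background. Of the cytosolic ribosomal protein mRNAs, 2 of 66 tested members were called higher and 0 lower in ES indirect, and the list made up 1.71% of pairs with rRNA and 1.73% of pairs without. Rpl8 was among the called members (22 pairs against 59, log2 odds ratio 1.62 ± 0.36, adjusted exact p = 0.00533), while Rpl4 had 21 against 147 (0.24 ± 0.33, adjusted exact p = 1). Against between-gene pairs 0 of 63 were called higher and 10 lower, beside 1.29% and 2.97% of all genes, and the median log2 odds ratio was −1.07 for the list and 0.12 for all genes. Their ends beside rRNA were 10.8% 5′UTR, 72.6% coding and 16.6% 3′UTR. In ES-1 and ES-2 the list made up 1.60% and 1.59% of pairs with rRNA and 1.70% and 1.42% of pairs without, and 0 of 46 and 0 of 24 members were called. Of the translation factors, 0 of 30 were called in ES indirect, at 1.69% and 1.40% of pairs, and against between-gene pairs 0 of 27 were higher and 2 lower. Pabpc1, the poly(A)-binding protein, had 22 pairs against 166 (0.14 ± 0.32, adjusted exact p = 1) and Eif4a1, an initiation helicase, 21 against 102 (0.77 ± 0.34, adjusted exact p = 0.562).

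Among the other lists in ES indirect, chaperone, cytoskeleton and related abundant mRNAs had 6 of 42 called higher (3.76% of pairs with rRNA and 2.49% without), and 2 of 41 higher and 5 lower against between-gene pairs, beside 1.29% and 2.97% of all genes on that background. Nuclear-encoded respiratory chain mRNAs had 2 of 19 called higher, Atp5b and Cox4i1, with 0.614% and 0.304% of pairs. Secretory and membrane protein mRNAs, which are translated at the endoplasmic reticulum, had 1 of 42 called higher, Bsg (1.76% and 1.21%), and Hspg2, a secreted proteoglycan, had 30 pairs against 155 (0.67 ± 0.29, adjusted exact p = 0.521). Pluripotency factor mRNAs had 1 of 29, Dppa5a (1.51% and 1.42%), with Sox2 at 18 against 110 (0.45 ± 0.36, adjusted exact p = 0.912) and Trim28 at 35 against 217 (0.41 ± 0.26, adjusted exact p = 0.834). Protein-coding hosts of small nucleolar RNAs had 1 of 41, Chd4, a chromatin remodeller (25 against 83, 1.31 ± 0.33, adjusted exact p = 0.0251), which was not called against between-gene pairs (1.10, adjusted exact p = 0.084). Against all pairs without rRNA 0 members of these lists were called lower. Beside the same 1.29% and 2.97%, 0 of 39 hosts of small nucleolar RNAs were called higher and 4 lower against between-gene pairs, and 1 of 12 respiratory chain mRNAs was called higher, Cox4i1. On that background 0 of 35 secretory and 0 of 26 pluripotency mRNAs were called in either direction. In ES-1 1 of 23 pluripotency factor mRNAs was called higher, beside 1.23% of all genes. This was Lefty1, a secreted inhibitor of Nodal, with 6 pairs of 2 fragments, and no other member of these lists was called in ES-1 or ES-2.

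With the wider rRNA labels, 10 genes were called higher in both ES-1 and ES-2 and 3 lower, of 1762 tested in both (0.568% and 0.17%). Their fragments were short. Chn1, which encodes chimaerin, had 297 pairs with rRNA and 73 without in ES-1 and 635 and 195 in ES-2 (log2 odds ratios 1.99 and 1.63), but 21 and 20 distinct fragments of a median 20 and 21 nt. ORF19 had 225 against 100 and 601 against 197 pairs, from 11 and 14 fragments of 17 and 18 nt. Lamc1, a laminin chain, had 175 and 209 pairs with rRNA (log2 odds ratios 0.76 and 0.91), from 78 and 66 fragments, and was also called higher in ES indirect (43 against 69, 1.02 ± 0.28, adjusted exact p = 0.0204), where 95.3% of its pairs matched the genome, against 41.1% in ES-1 and 20.6% in ES-2. The sequence match of the other 7 genes called higher ranged from 3.33% to 63.6% in the replicates. With the filtered between-gene background 3 of 1368 genes (0.219%), Chn1, Jmjd6 and ORF19, were called higher in both replicates and 0 lower (0%). The 3 genes called lower with the wider labels were Gm10800, Mtm1 and Trim25. Gm10800 had 0 pairs with rRNA in each library, against 134 and 12 without in the replicates and 332 in ES indirect, where it was also called lower (adjusted exact p = 2.00e-35). Mtm1 had 43 against 99 and 76 against 146 pairs in the replicates, of which 6.98% and 3.95% matched the genome, and 1 against 9 in ES indirect (adjusted exact p = 0.835). Trim25 had 156 against 290 and 197 against 348 pairs, of which 18.6% and 10.2% matched, and 24 against 62 in ES indirect (log2 odds ratio 0.35, adjusted exact p = 0.777).

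The libraries carried ES cell mRNAs in these contacts. The 12 ES cell markers gave 28 pairs with rRNA in ES-1, 1 in ES-2 and 138 in ES indirect, from 8, 1 and 12 of the genes. The 9 fibroblast markers present gave 16, 3 and 38 pairs, of which Fn1 made up 15, 3 and 31.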

How the data were processed

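The files hold 1 line per chimeric read pair, with the genomic position, strand, type, gene and region of RNA1 and RNA2; these positions were deposited by the authors and are no counts or normalized values. Per the labels and the study's methods, the authors removed PCR duplicates, split reads at the linker with MARIO tools, kept pairs with both fragments mapped uniquely and worked on mm9 (NCBIM37). TopHat2 2.1.1 is named in the submitters' processing notes; no source used here states its role.

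From the files, pairs with rRNA at one end and a protein_coding utr5, exon or utr3 end at the other were taken, and pairs without any rRNA label served as background. Identical pairs of coordinates were counted once. An end counted as rRNA-like when at least 50% of its 12-base words occurred in rRNA loci, and as matching when it differed from the genome at no more than 15% of bases. Between-gene pairs join an mRNA end to a fragment with another name, more than 2000 bp away or on another chromosome. That fragment can be of any type without an rRNA label, including repeats and unannotated fragments, and need not lie in another gene. Odds ratios per gene have 0.5 added to each cell. Fisher's exact test, the Mantel-Haenszel odds ratio and Wilson intervals were computed with Python 3.11.15, scipy 1.17.1, numpy 2.4.6 and pandas 2.3.3, and sequences were read with pysam 0.24.0. The tests were also run on data simulated from the gene counts of each library. Of genes set 4-fold higher, 5 of 45 were called in ES-1, 0 of 45 in ES-2 and 14 of 49 in ES indirect. Of genes set to 0.25-fold, 1 of 46, 0 of 43 and 1 of 44 were called, so most lower genes of that size would be missed. Genes named are the 15 with most ends in ES-1 and ES-2 together and present in both, members of each list with most ends (up to 4), up to 5 genes that are mostly rRNA-like, those called and those with most ends in ES indirect; the last 2 kinds, and genes called with the wider labels, were added after their values were seen. Members and lists were chosen with earlier results of these data known. No member of the mitochondrially encoded list was found in the files analysed. MEF and brain libraries were not used here. Alternatives were counting every line, both strands, other filters, backgrounds, sides of the linker, flow cells and minimum ends per gene. Some called genes are not reported here.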

Additional observations from a re-analysis of the deposited data

How the results depend on the processing

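Most results, 317 of those recomputed under an alternative, kept their direction and side of the threshold, and the exceptions follow; their causes were not tested. Region differences are in percentage points (rRNA minus no rRNA) and odds ratios are within genes. Gene counts in this section are given without the number of genes tested, which differed between alternatives. They cannot be read as shares or set against the shares of the main setting. Counting every line gave a 3′UTR odds ratio of 0.733 in ES indirect, 73 genes higher and 3 lower in ES-1, 332 and 79 in ES indirect, 5S and 5.8S shares of 86.5% and 9.23% in ES-1 and a 5′ETS share of 10.3%. With both strands the 5′UTR and 3′UTR differences were −2.20 and 1.74 (ES-1) or 3.15 and −2.45 (ES-2), the 5′UTR difference in ES indirect was 1.40, and 1 gene in ES-1 and 13 in ES indirect were lower. Keeping rRNA-like ends gave a 5′UTR difference of 0.648 in ES indirect. Against between-gene pairs the ES-1 differences were −1.67 (5′UTR) and 2.39 (3′UTR), the ES indirect differences 2.92 (5′UTR) and −0.345 (coding), the ES indirect odds ratios 0.778 (3′UTR) and 1.21 (5′UTR), and 26 genes were higher and 60 lower. Without snoRNA and snRNA in the background 1 gene was lower in ES-1.

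RNA1 ends alone gave differences of 9.39 (coding) and −12.6 (3′UTR) and odds ratios of 0.406 (3′UTR) and 1.52 (5′UTR) in ES-1, 1 gene higher there, a 3′UTR odds ratio of 0.722 in ES indirect and 40 higher and 5 lower genes. RNA2 ends alone gave 6 and 3 in ES indirect. Flow cell 1 alone gave 0 genes higher in ES-1 and 28 and 4 in ES indirect, and flow cell 2 alone 6 in ES-1, 39 and 3 in ES indirect and a 5′UTR odds ratio of 0.519 in ES-2. A minimum of 20 ends per gene called 9 genes in ES-1 where ES-2 had 1, and coding ends alone called 7, 1 and, for ES indirect, 40.

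4 alternatives were added after the data were seen. The filtered between-gene background gave a 3′UTR difference of 2.25 in ES-1, differences of 2.48 (5′UTR) and 0.238 (coding), odds ratios of 0.774 and 1.196 and 20 higher and 56 lower genes in ES indirect. Wider rRNA labels gave differences of 2.83 (5′UTR) and −3.16 (3′UTR) for ES-1, 3.00 (5′UTR) and −2.44 (coding) for ES-2, odds ratios of 0.847 (3′UTR) and 1.19 (5′UTR) in ES-1 and 0.729 (3′UTR) in ES indirect, 22 genes lower in ES-1, 50 higher and 14 lower in ES-2, 127 and 43 in ES indirect and 10 and 3 in both replicates. Both together gave 1.73 (5′UTR) and −1.75 (3′UTR) in ES-1, 2.91, −1.27 (coding) and −1.64 in ES-2 and 2.40 (5′UTR) and −1.12 (coding) in ES indirect, odds ratios of 0.893 and 1.17 in ES-1 and 0.828 and 1.19 in ES indirect, 5 higher and 12 lower genes in ES-1, 14 higher with 6 lower in ES-2, 130 lower in ES indirect and 3 higher in both. Distinct mRNA ends gave a 5′UTR difference of 5.27 in ES-2, turned the ES-1 differences to 0.499 (5′UTR) and −0.346 (3′UTR), the signs of ES-2, and gave 0 genes higher in ES-1, 3 in ES-2 and 5 lower in ES indirect.

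Leaving out ES-1 or ES-2 moved the mean difference of the replicates between −1.05 and 2.42 (5′UTR), −0.02 and 0.449 (coding) and −2.86 and 1.07 (3′UTR), the mean odds ratios between 0.939 and 1.01 (3′UTR) and 0.854 and 0.891 (5′UTR), and the genes called higher between 0 and 26. No paired analysis was possible because no sample groups were compared. Each difference was taken within 1 library, and 2 replicates are too few for an exact test of the mean difference to pass the threshold. ES-2 held 883 kept pairs, which limits what it can detect.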
